A study of Mus musculus with 3 samples.

Results

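The genes of the proteasome were taken as the protein-coding genes of GENCODE release M21 (mm10) whose symbols begin with Psma, Psmb, Psmc, Psmd, Psme, Psmf or Psmg, without Psmb8 and Psmb9. Subunits of the 19S regulatory particle under other symbols, such as Sem1 and Adrm1, are outside this rule. The rule gave 48 of 21851 protein-coding genes. They comprised 31 constitutive subunits (7 alpha and 7 beta subunits of the 20S core, 6 ATPases and 11 non-ATPase subunits of the 19S regulatory particle), 7 assembly chaperones, 3 activators or inhibitors of broad expression (Psme3, Psme4 and Psmf1) and 6 immune or tissue-restricted genes (Psmb10, Psme1, Psme2, Psme2b, Psmb11 and Psma8). The remaining gene, Psmc3ip, carries the symbol only: it encodes a meiotic recombination factor and no proteasome subunit.

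Their chromatin was read by DNase-seq, which maps where the nuclease DNase I can cut DNA in nuclei. All 3 libraries came from primary monocytes of female B6CASTF1/J mice aged 2 months, an F1 hybrid of the C57BL/6J and CAST/EiJ strains, with no treatment named. The libraries are numbered as biological replicates 1, 2 and 4 and share 1 donor identifier, so the spread between them, given as SD over n = 3, may be technical. There was 1 group and no control, and every comparison below is between genes within these libraries.

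The proteasome is the protease that degrades ubiquitin-tagged proteins. Its 20S core is a barrel of stacked rings, in which alpha subunits gate the entrance and beta subunits cut the substrate. The 19S particle recognises ubiquitin, unfolds the substrate with a ring of ATPases and feeds it into the core. In immune cells interferon induces alternative catalytic subunits and the Psme1-Psme2 activator, which serve antigen presentation, while Psmb11 is known from thymic cortical epithelium and Psma8 from testis. The factors Nfe2l1 and Nfe2l2 can activate proteasome genes through antioxidant response elements (ARE), Nfe2l1 when proteasome activity falls.

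The deposited footprints, short stretches protected from cutting inside open chromatin, lay over ARE consensus matches at 3 of the 45 members with an open promoter (6.67%), a share near the 5.23% of all genes with an open promoter. The pattern searched was TGACNNNGC on either strand, and a match counted when it lay, with 5 bp of tolerance, in a footprint of replicate 1 that footprints of replicates 2 and 4 overlapped, within 500 bp of the reference transcription start. The matches were at Psmb5, the chymotrypsin-like catalytic subunit (chr14:54618024-54618053, minus strand, match starting 20 bp before the reference start), at Psmb6, the caspase-like catalytic subunit (chr11:70525338-70525367, plus strand, 38 bp before), and at the assembly chaperone Psmd9 (chr5:123228149-123228178, plus strand, 31 bp before). They are shown, with the match in capitals, because this is the element through which Nfe2l1 is known to act on proteasome genes. In replicate 1 the Psmb6 footprint covered only part of its match. The Psmd9 footprint also held a match to GGGCGG, a pattern of SP and KLF factors, that overlapped the ARE match. Sequences here are of the GRCm38.p6 assembly, which is C57BL/6J, and the CAST/EiJ allele may differ.
Psmb5 ARE match: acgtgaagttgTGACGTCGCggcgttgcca
Psmb6 ARE match: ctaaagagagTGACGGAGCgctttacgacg
Psmd9 ARE match: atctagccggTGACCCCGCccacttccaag

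ETS factors bind a core of GGAA, and the ETS pattern CCGGAAG lay under a footprint of all libraries at 9 members (20% of the 45 open ones, beside 9.30% of all open genes). Those at 4 members are printed, capitals marking the pattern or its reverse complement: Psmc1 (chr12:100110163-100110192, plus strand, 20 bp after the reference start) and Psmc6 (chr14:45329713-45329742, plus strand, 64 bp before), which are ATPases, Psmd7, a subunit of the 19S lid (chr8:107588438-107588467, minus strand, 9 bp after), and Psme4, the nuclear activator PA200 (chr11:30771711-30771740, plus strand, 4 bp before).
Psmc1 ETS match: tggtggatgcaCTTCCGGcggtggcgattt
Psmc6 ETS match: aggcgggccagCCGGAAGgggcggagccag
Psmd7 ETS match: gcggcggtcaaaCCGGAAGgggaggtgctg
Psme4 ETS match: gtggccccgccCCGGAAGtgacttgaggcc

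The YY1 pattern AAGATGGC occurred in 6 members, all constitutive, and in 4 of them it held the annotated start codon ATG. Those 4 are printed with the pattern in capitals: Psma2 (chr13:14613261-14613290, plus strand, 32 bp after the reference start), Psmb6 (chr11:70525383-70525412, plus strand, 8 bp after), Psmc5 (chr11:106256177-106256206, plus strand, 34 bp after) and Psmd11 (chr11:80428651-80428680, plus strand, 37 bp after). None of the members' YY1 matches lay under a footprint of all libraries, as against 1.21% of all open genes with one.
Psma2 YY1 match: ctttccgggtaAAGATGGCagagcgcggtt
Psmb6 YY1 match: agtagcagaggAAGATGGCggccgccttag
Psmc5 YY1 match: ccgagagagggAAGATGGCgcttgatgggc
Psmd11 YY1 match: gtgagagcggtAAGATGGCggccgcagcgg

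The libraries held 54046, 42657 and 48980 peaks in replicates 1, 2 and 4 in the longer of their peak lists, and 144028, 107955 and 119597 footprints. Peak lists keep no read totals, so the depth behind each peak is unknown. Of 10 monocyte markers 7 were open at the promoter in every library, 2 (Ly6c2 and Fcgr4) in some and 1 (Ccr2) in none. Among markers of other cells 1 of 4 for T cells (Cd5), 1 of 4 for neutrophils (Csf3r) and 1 of 3 for megakaryocytes (Pf4) had one, and 0 of 3 for natural killer cells and 0 of 3 for erythroid cells. Defining genes such as Cd3e, Ncr1, Elane and Gata1 had none in any library.

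Every constitutive proteasome gene had an open promoter. A peak overlapped the window of 1 kb either side of an annotated start in all 3 libraries at 31 of 31 constitutive members, at 7 of 7 assembly chaperones, at 3 of 3 broad activators or inhibitors and at Psmc3ip. The immune or tissue-restricted genes divided, with Psmb10, Psme1 and Psme2 open in every library and Psmb11, Psma8 and Psme2b in none. That made 45 of 48 members (93.8%), beside 11029 of 21851 protein-coding genes (50.5%). In the shorter, stricter peak list 44 of 48 members kept a promoter peak in all libraries, beside 46.9% of all genes, and the member lost was Psmb10.

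Peak height is the authors' own value for each peak and was ranked within its library, as a percentile of all peaks there. The median over the 45 open members was 91.4, 88.3 and 90.0 in replicates 1, 2 and 4, and 89.9 ± 1.57 (SD, n = 3) over the libraries. All genes with a promoter peak in all libraries had medians of 88.5, 85.4 and 87.1, so the members were higher than these in each of the 3 libraries. By class the library mean of the median was 89.1 ± 1.11 for alpha subunits, 86.0 ± 2.15 for beta subunits, 89.5 ± 0.847 for ATPases, 91.2 ± 1.16 for non-ATPase subunits of the 19S particle and 90.0 ± 2.93 for assembly chaperones. The 19S non-ATPase subunits were the class most often above the median of all open genes. By their tallest peak 10 of 11 exceeded it in every library, the exception being the deubiquitinase Psmd14. At Psmd1 and Psmd13 the tallest peak was not the one over the reference start, which had percentiles of 83.2, 76.5 and 83.3 at Psmd1 and of 83.4, 79.0 and 83.4 at Psmd13, below that median. Of the 7 beta subunits 3 exceeded it in every library (Psmb1, Psmb2 and Psmb3) and 4 fell short of it in every library.

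**Figure D1:**
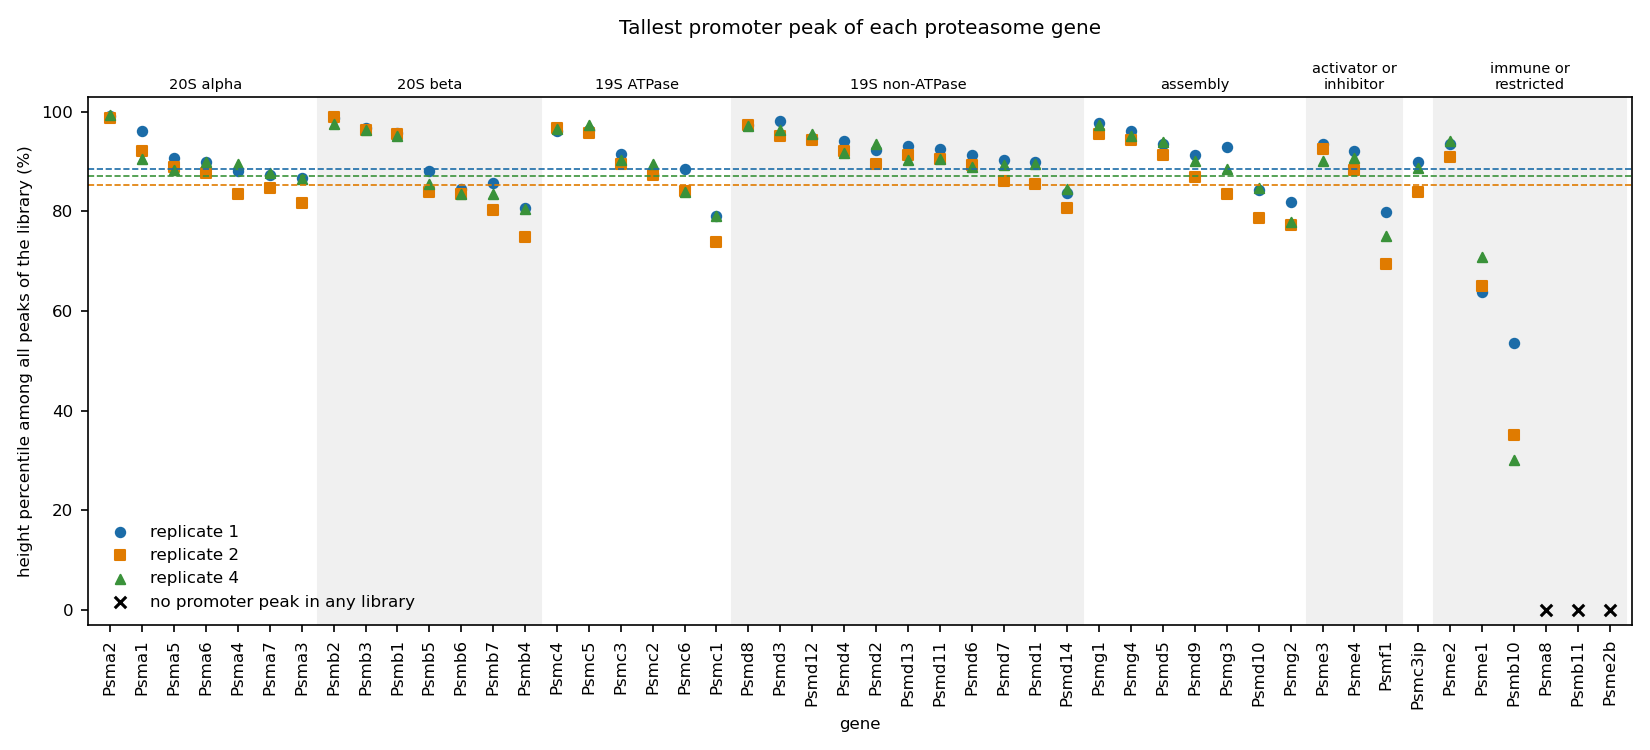
Height percentile of the tallest promoter peak of each of the 48 genes among all peaks of its library (y axis, percent), with 1 marker per library and genes grouped by class on the x axis. Dashed lines are the medians over all genes with a promoter peak in all libraries (88.5, 85.4 and 87.1), and crosses mark Psma8, Psmb11 and Psme2b, which had no promoter peak. Psme1 and Psmb10 lie below every constitutive gene in each library.

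Within the 20S core the tallest promoter peak belonged to Psma2, an alpha-ring subunit, with heights of 10.7, 8.98 and 15.8 and percentiles of 99.1, 98.8 and 99.3 in replicates 1, 2 and 4. Psmb2, a non-catalytic beta subunit, followed with heights of 10.2, 9.10 and 11.8 (percentiles 98.8, 98.9 and 97.5). The order of these genes differed between libraries, Psmb2 being the higher in replicate 2. The catalytic beta subunits were lower: Psmb5 had heights of 3.83, 3.01 and 4.46, Psmb6 had 3.05, 2.93 and 3.91, and Psmb7, the trypsin-like subunit, had 3.27, 2.50 and 3.94. These ranges overlapped one another and lay below the values of Psma2 and Psmb2 in every library. Psmb4, a structural beta subunit, had the lowest peak of the core, at 2.45, 1.97 and 3.28.

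In the 19S particle the ATPases Psmc4 and Psmc5 and the lid subunits Psmd8 and Psmd3 had the tallest promoter peaks. Psmc4 gave heights of 7.29, 7.04 and 10.7, and Psmc5 gave 7.46, 6.49 and 11.5. Psmd8 gave 8.20, 7.49 and 11.3 and was the steadiest in rank, with percentiles of 97.3, 97.3 and 97.2. Psmd3 gave 9.11, 6.14 and 10.3. The 4 genes overlapped in height across the libraries. Psmc1, another ATPase of the same ring, had the lowest percentile of all 31 constitutive genes in every library, with heights of 2.28, 1.90 and 3.04 (percentiles 79.1, 73.8 and 79.0). The ubiquitin receptor Psmd4 (6.02, 4.89 and 6.94) was above the deubiquitinase Psmd14 (2.90, 2.54 and 4.16) in each library, and their ranges did not overlap. From the shortest to the tallest constitutive promoter peak the ratio of heights was 4.69, 4.79 and 5.20 in replicates 1, 2 and 4.

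Among the assembly chaperones Psmg1 had the tallest peak (8.67, 6.40 and 11.7) and its partner in core assembly, Psmg2, the shortest in percentile in every library (heights 2.62, 2.19 and 2.88). Psmg3 varied most in rank within this class, with percentiles of 92.9, 83.6 and 88.5. Of the broad regulators Psme3, the nuclear PA28-gamma activator, gave 5.68, 5.04 and 6.13, Psme4 gave 5.10, 3.84 and 6.35, and the inhibitor Psmf1 gave 2.37, 1.62 and 2.51. The 2 activators overlapped in height and Psmf1 was below both in each library.

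Psmb10 replaces Psmb7 in the immunoproteasome. Its promoter peak had heights of 1.01, 0.736 and 0.743 and percentiles of 53.6, 35.0 and 30.1, with a mean of 39.6 ± 12.4 (SD, n = 3). This was the lowest of the 45 open members in every library, and replicate 1 stood apart from the other two. The midpoint of the peak lay 323, 270 and 313 bp after the reference start, over exon 1. Psme1, a subunit of the interferon-inducible PA28 activator, had heights of 1.31, 1.42 and 2.12 (percentiles 63.8, 65.1 and 70.8) and was the second lowest of the open members in every library. Its peak covered the RefSeq start, 134 bp after the GENCODE reference start, in all libraries. Psme2, the partner of Psme1 in that ring, differed from both: the peak over its own start had heights of 5.76, 4.31 and 6.87, within the range of the constitutive genes. A further peak 464, 554 and 544 bp before the Psme2 start reached 5.75, 4.56 and 8.39 and covered the start of Rnf31, 607 bp from the nearest Psme2 start. In replicates 2 and 4 this was the taller peak and set the percentile of Psme2 (90.9 and 94.1), whose own peak stood at 90.1 and 91.6.

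The authors also deposited a false discovery rate (FDR) for cutting along the genome, listed where it was under 0.05. The lowest FDR in the Psmb10 window was 4.85e-09, 9.76e-05 and 3.82e-04 in replicates 1, 2 and 4, and in that of Psmc1, the lowest constitutive gene, 1.03e-21, 2.60e-16 and 1.90e-26. The windows of Psmb11, Psma8 and Psme2b held no listed interval in any library. The same was true of 9314 of the 9630 protein-coding genes (96.7%) without a promoter peak in any library, which is most closed genes. Psme2b is a copy of Psme2, and how reads from copied sequence were placed is not given in the sources used here. Foxn1 and Krt5, markers of the thymic epithelium in which Psmb11 acts, and the germ cell markers Ddx4, Sycp3 and Stra8 had no promoter peak in any library either.

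Most members carried a compact peak on the start itself. The peak nearest the reference start covered it in 40, 41 and 41 of the 45 open members (88.9%, 91.1% and 91.1%), beside 72.0%, 70.3% and 69.8% of all open genes. Its midpoint was within 100 bp of the start in 35, 36 and 37 members (77.8%, 80% and 82.2%), beside 61.9%, 62.5% and 63.1%. The median width was 220, 220 and 200 bp, beside 240, 220 and 220 bp. Only 1 promoter peak was present in 28, 31 and 29 members, which is 62.2%, 68.9% and 64.4%, beside 49.8%, 56.4% and 54.2% of all open genes. These shares are descriptions of the list and were not tested.

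**Figure D2:**
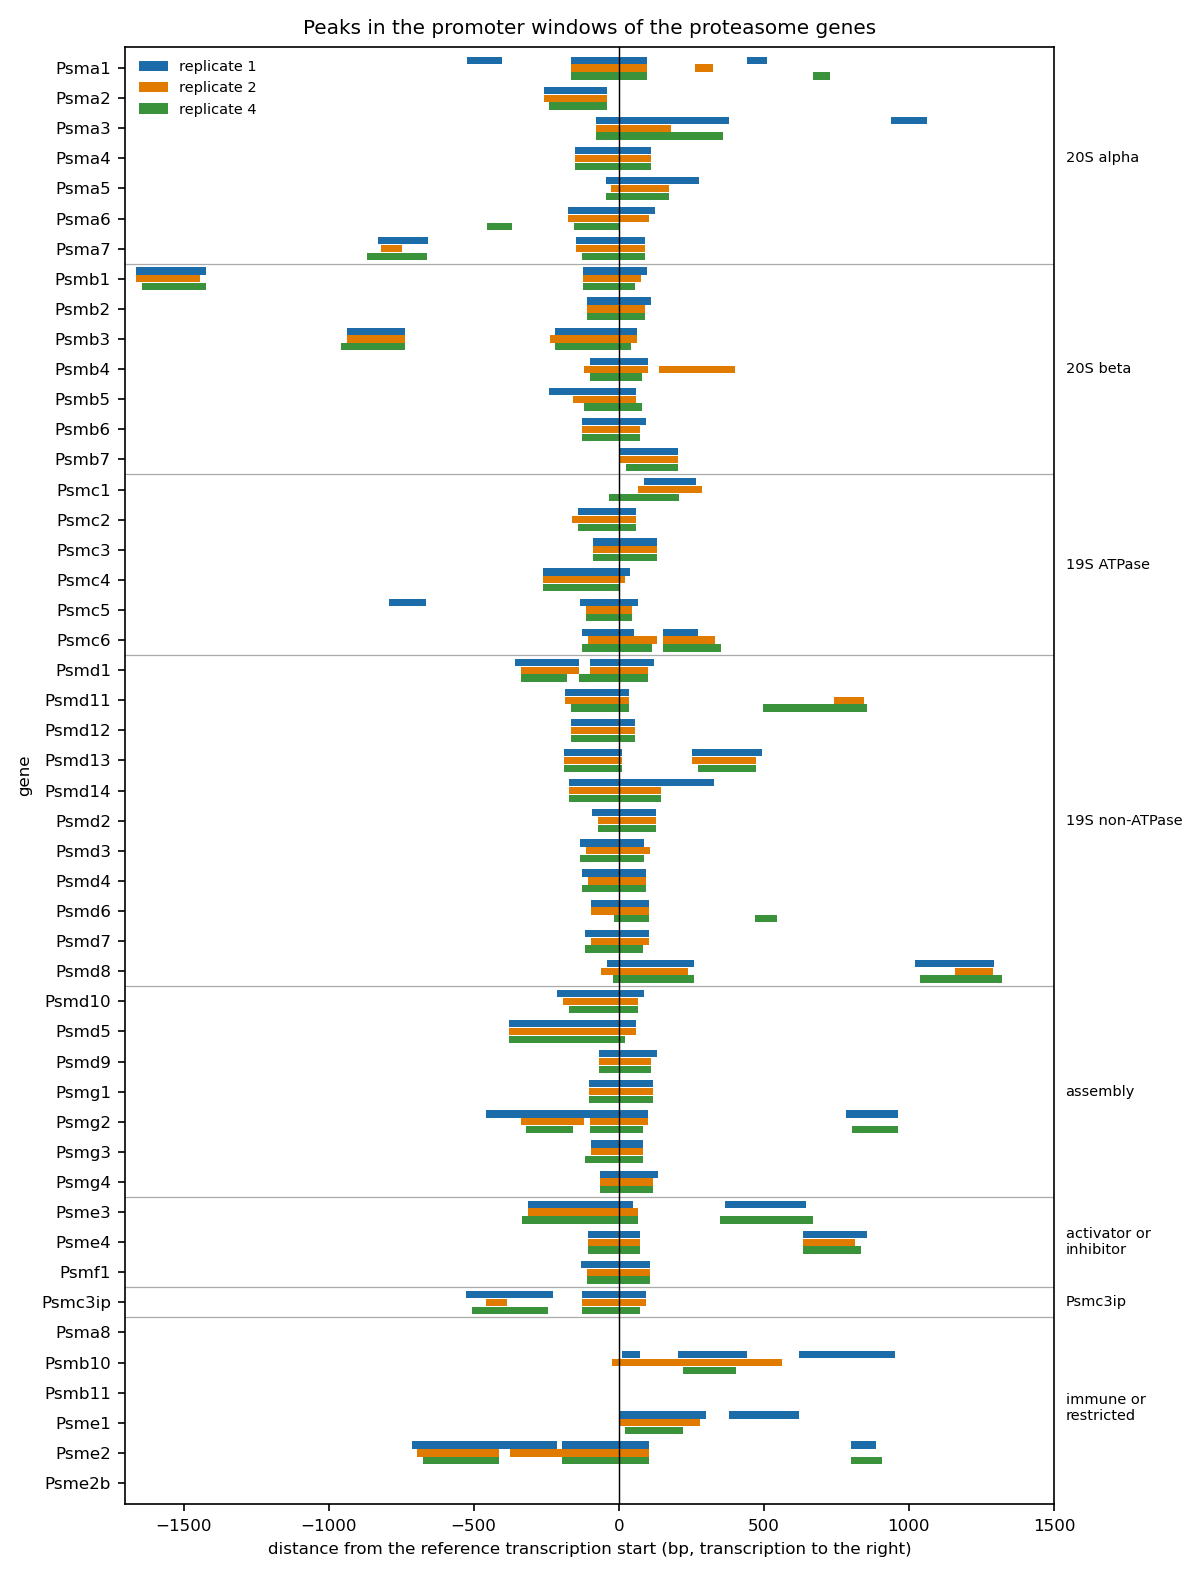
Peaks that overlap the promoter windows of the 48 genes, drawn to scale by distance from the reference transcription start (x axis, bp) with 1 bar per peak and colour per library. Most bars cross 0, while Psma2 has its peak before the start, Psme1 has its peak after the start, and the rows of Psma8, Psmb11 and Psme2b are empty.

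The nearest peak missed the reference start in every library at Psma2, Psmb7 and Psme1. It missed it in replicates 1 and 2 at Psmc1 and in replicates 1 and 4 at Psmb10. At Psmb7 the midpoint lay 106, 106 and 116 bp after the start. The Psma2 peak had its midpoint 149, 149 and 139 bp before the start and did not cover it in any library. It covered the start of Mrpl32, a mitochondrial ribosomal protein gene transcribed the other way from 75 bp away, so the tallest peak of the core lay over a shared promoter. Psmb1 and Psmb3 each had a taller peak upstream of the one over their reference start. At Psmb1 that peak was 1543, 1553 and 1533 bp before the reference start. It covered an alternative Psmb1 start and the start of Tbp, the TATA-binding protein gene, in all libraries. This peak gave Psmb1 its percentiles, while the peak over the reference start had heights of 4.78, 4.05 and 6.75 (percentiles 91.3, 89.2 and 91.4). At Psmb3 it was 838, 838 and 848 bp before, and the peak over the start had heights of 5.69, 4.34 and 8.75. At Psmd13 the tallest peak was 373, 363 and 373 bp after the reference start and covered the RefSeq start, which is 426 bp downstream. It also covered a start of Sirt3, a gene on the other strand, in all 3 libraries. Of 40 members with a RefSeq start 35 had it within 50 bp of the reference start, and 33 had a peak over it in all libraries.

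Some members start close to another gene. A protein-coding start of another gene lay within 1 kb of a start of 11 of 48 members (22.9%), beside 11.8% of all protein-coding genes and 20.5% of those with a promoter peak in all libraries, a share close to the latter. The partners were Mrpl32 at Psma2 (75 bp), AY074887 at Psma4 (208 bp), Ss18l1 at Psma7 (76 bp), Tbp at Psmb1 (137 bp), Dnajc2 at Psmc2 (32 bp), Ftsj3 at Psmc5 (75 bp), Atg4a at Psmd10 (179 bp), Sirt3 at Psmd13 (99 bp), Rnf31 at Psme2 (607 bp), Cep76 at Psmg2 (263 bp) and Gm26938 at Psmg3 (436 bp). The peak nearest the member's start covered the partner's start in all 3 libraries at 5 of them, Psma2, Psma7, Psmc2, Psmc5 and Psmd13. At Psma2 that peak missed the member's own start. At Psmb1 and Psme2 a further peak of the window covered the partner's start, and at Psmg2 1 of the peaks in the window did. At Psma4, Psmd10 and Psmg3 no peak covered the partner's start in any library. A peak over the starts of both genes cannot be assigned to either gene.

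The sequence around the starts was read from 250 bp before to 50 bp after the reference start of all 21851 genes. The ETS pattern CCGGAAG was present in 18 of 48 members (37.5%), beside 11.2% of all genes and 19.4% of all open genes. It was divided unevenly over the complex: 1 of 14 core subunits had it (Psma6), and 10 of 17 subunits of the 19S particle, namely the ATPases Psmc1, Psmc2, Psmc3 and Psmc6 and the subunits Psmd2, Psmd4, Psmd6, Psmd7, Psmd11 and Psmd12. Under footprints of all libraries, sought here and below within 500 bp of the start, it was found at 9 of 45 open members (20%), beside 9.30% of all open genes. The 9 include Psmc3ip, and also Psme2 and Psmd14, whose matches lay outside the shorter stretch. Among constitutive members the count was 5 of 31 (16.1%). A match is a description of the sequence and names no bound factor.

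The YY1 pattern AAGATGGC was present in 12.5% of members (Psma2, Psmb5, Psmb6, Psmc5, Psmd7 and Psmd11), beside 3.07% of all genes and 5.01% of open genes. In 4 of these 6 it held the annotated start codon, as it did in 170 of 671 matching genes (25.3%) and in 28.4% of those that were open. The ARE pattern TGACNNNGC was present in 7 members (Psmb2, Psmb5, Psmb6, Psmc6, Psmd7, Psmd9 and Psmd12), or 14.6%, beside 12.8% of all genes and 14.6% of open genes. Within this window the members' share equals that of open genes. From 500 bp before to 100 bp after the start it was 35.4% of members, beside 24.3% of open genes and 21.9% of all genes, and from 100 bp before to 50 bp after it was 8.33%, beside 8.92% and 7.71%. Under footprints of all libraries the ARE pattern was found at 6.67% of open members, beside 5.23% of open genes.

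Of the general promoter patterns GGGCGG, bound by SP and KLF factors, occurred in 58.3% of members (45.4% of all genes, 65.1% of open genes) and CCAAT, bound by NF-Y, in 37.5% (38.6% and 39.4%). GGGCGG was under footprints of all libraries at 21 open members (46.7%, beside 43.8% of open genes) and CCAAT at 7 (15.6%, beside 10.1%). With the 5 bp of tolerance, applied to all genes alike, a short match may only touch the edge of a footprint. The CCAAT matches of Psma5 and Psmd4 did so. GCATGCGC, the pattern of nuclear respiratory factor 1, occurred in 4 members (8.33%, beside 3.73% and 5.68%). Under footprints of all libraries it was found at Psma2 and Psmg1, which is 4.44% of open members, beside 6.01% of open genes. The CRE pattern TGACGTCA occurred in 1 member, Psmb2 (2.08%, beside 2.49% and 3.76%), 23 bp before the start. It lay there under a footprint of all libraries, which makes 2.22% of open members, beside 3.69% of open genes. The E-box CACGTG was present in 7 members (14.6%, beside 7.72% and 10.4%). The patterns searched by name were present in 5 members for NF-kappaB (10.4%, beside 9.38% and 10.4%), in 1 for CTCF (2.08%, beside 0.444% and 0.753%) and in 2 for ZNF143 (4.17%, beside 0.499% and 0.825%). GAAANNGAA, a part of the interferon response element, occurred in 7 members (14.6%, beside 8.48% and 7.31%) and in 0 of the 6 immune or tissue-restricted genes. That says only that these letters are not in this window. All patterns were searched on both strands, and the SP and KLF, ETS and other patterns could overlap.

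**Figure D3:**
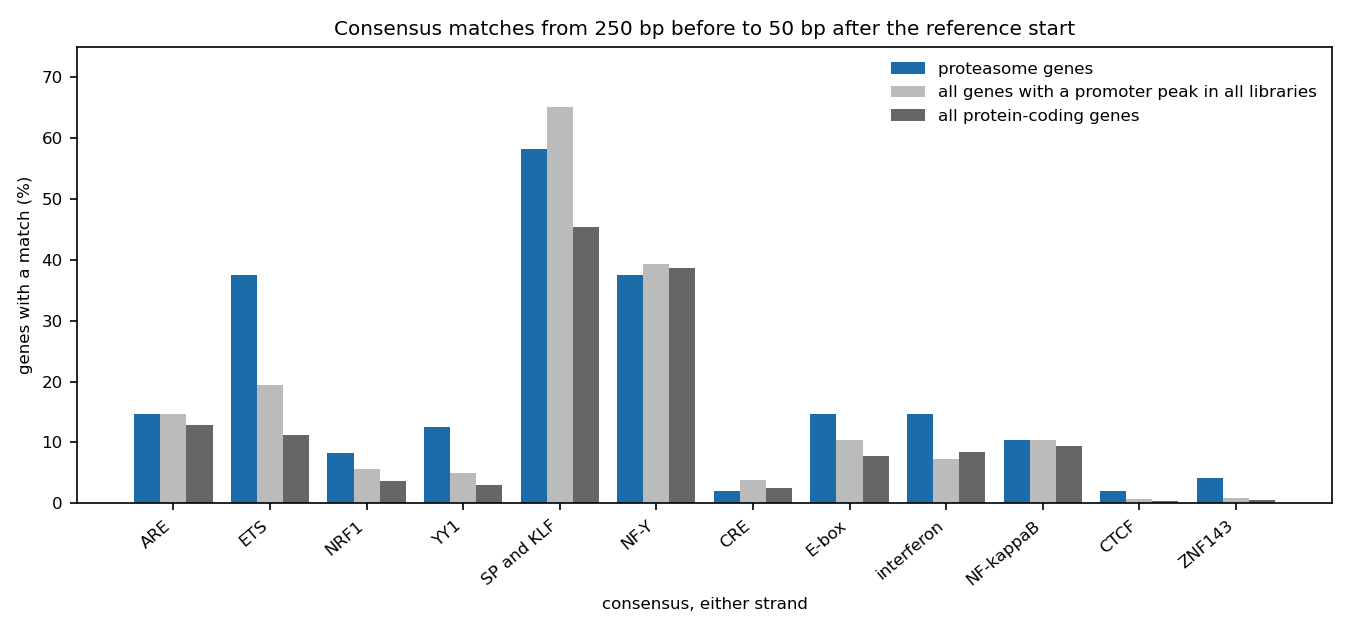
Percentage of genes with each consensus (y axis, from 0) in the stretch from 250 bp before to 50 bp after the reference start, for the 48 proteasome genes, for all genes with a promoter peak in all libraries and for all protein-coding genes. The bar of the proteasome genes for the ETS pattern (37.5%) is above both others (19.4% and 11.2%), while for the ARE pattern the members (14.6%) match the open genes (14.6%).

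CpG density separated the closed and weak genes only in part. The ratio of observed to expected CG dinucleotides had a median of 0.787 over the 48 members and 0.808 over the constitutive ones, beside 0.557 for all genes and 0.779 for open genes. Psmb11 had 0.165, Psmb10 0.249, Psme2b 0.325, Psme2 0.484 and Psme1 0.670, all under the members' median. So were open constitutive genes such as Psmb7 (0.487), Psmd4 (0.508) and Psmb4 (0.544), and Psme2 itself was open and not weak. Psma8 had 0.764 with no peak in any library, close to the median of open genes. The 150 bp before the reference start are printed for an open constitutive gene, its closed neighbour and the weakest open gene, with each CG in capitals: Psmb5 (chr14:54618023-54618172, minus strand, 11 CG), Psmb11 (chr14:54625160-54625309, plus strand, 2 CG) and Psmb10 (chr8:105938445-105938594, minus strand, 3 CG).
Psmb5 upstream: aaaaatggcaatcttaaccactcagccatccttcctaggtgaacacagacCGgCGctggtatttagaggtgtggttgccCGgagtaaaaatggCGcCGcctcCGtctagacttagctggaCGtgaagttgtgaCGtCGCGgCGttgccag
Psmb11 upstream: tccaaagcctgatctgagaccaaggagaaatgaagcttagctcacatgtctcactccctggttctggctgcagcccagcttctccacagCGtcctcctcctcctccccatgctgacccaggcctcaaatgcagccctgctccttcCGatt
Psmb10 upstream: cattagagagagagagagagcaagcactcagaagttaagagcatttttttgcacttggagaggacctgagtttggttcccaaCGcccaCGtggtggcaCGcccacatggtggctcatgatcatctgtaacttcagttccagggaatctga

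Footprints were counted in the whole window of 1 kb either side. Constitutive members had a median of 7, 6 and 6 footprints in replicates 1, 2 and 4, and 6.33 ± 0.577 (SD, n = 3) over the libraries, beside medians of 6, 5 and 5 for all open genes. That is 1 footprint more in each library. Psma3 (12, 10 and 10) and Psmb3 (9, 12 and 10) had the most footprints of the 20S core on the mean of the libraries (10.7 and 10.3), and Psmb6 (2, 1 and 2) the fewest of all constitutive genes. Psme2 had 15, 9 and 8 footprints over its paired peaks, Psme1 had 5, 1 and 2, and Psmb10 had 8, 0 and 3. The counts of Psmb10 and Psme1 were highest in replicate 1, the library with the most footprints in all. Psmb11, Psma8 and Psme2b had 0 in every library, and the 6 restricted genes had a median of 1.17 ± 1.26. Without replicate 1 that median was 0.500, and without replicate 2 it was 1.75.

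Footprints that recurred in all 3 libraries within 500 bp of the start had a median of 2 over the 45 open members and a mean of 2.87, beside 2 and 2.53 for all open genes. Psma2 had the most, at 8, followed by Psma1 and Psma3 with 6 each. Psma6 and Psmb10 had none, as did 2279 of the 11029 open genes.

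**Figure D4:**
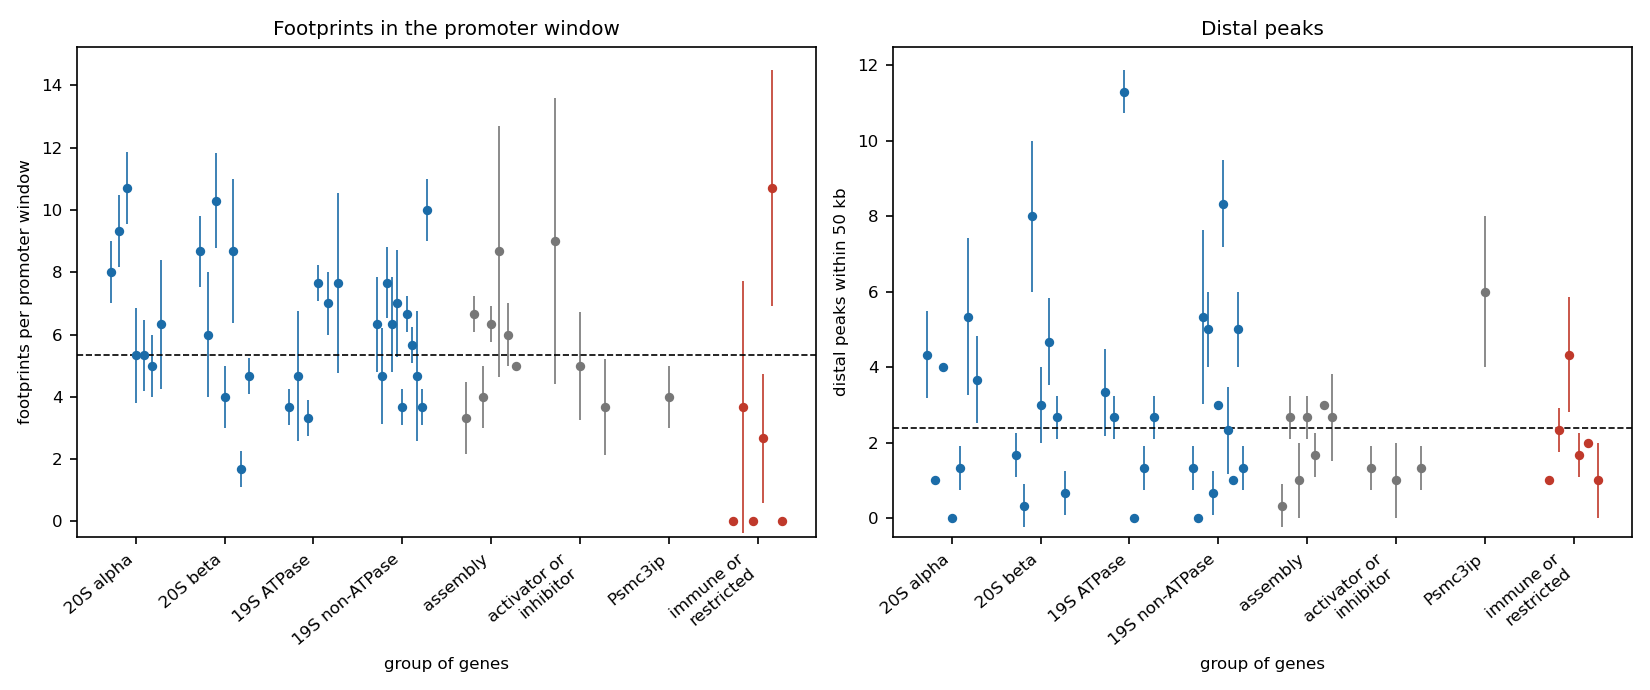
Footprints in the promoter window (left) and distal peaks within 50 kb (right) of each of the 48 genes, as the mean of 3 libraries with bars of 1 SD, grouped by class on the x axis and in alphabetical order within a class. The dashed lines are the mean over the libraries of the median of all open genes (left, 5.33) and the mean of all protein-coding genes (right, 2.40). Psmc3 stands above all others on the right, at 11.3.

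A distal peak was one that overlapped no promoter window of any protein-coding gene and whose midpoint lay within 50 kb of the gene's most upstream start. Such a peak is assigned by position only. Members had 2.74 ± 0.387 distal peaks per gene (mean over genes, SD over n = 3 libraries), beside 2.40 ± 0.326 for all protein-coding genes. The order did not hold within 25 kb, where members had 1.19 and all genes 1.21. In replicates 1, 2 and 4 the members had 3.0, 2.29 and 2.92, above the 2.68, 2.04 and 2.46 of all genes and below the 3.54, 2.71 and 3.28 of all open genes. Constitutive members had 3.08 ± 0.401 and the immune or tissue-restricted ones 2.06 ± 0.347. Psma4, Psmc4 and Psmd11 had none in any library, and all 3 promoters were open. Counted in replicates 1, 2 and 4 separately, 6, 5 and 7 of the 48 members had none. The shares without any were 13.5%, 20.9% and 15.6% of all open genes and 30.1%, 37.2% and 32.6% of all protein-coding genes.

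The members with the most distal peaks were Psmc3 (11, 12 and 11), Psmd3 (9, 7 and 9) and Psmb3 (6, 8 and 10), and without them the mean of the others was 2.30, under the 2.40 of all genes. Of 14 distal regions around Psmc3, 9 lay inside Spi1, the gene of the myeloid factor PU.1, and 6 of those 9 were found in all libraries. The tallest of these regions, chr2:91082901-91083260, 29.1 kb after the Psmc3 start, had heights of 5.34, 4.43 and 6.13, compared with 4.83, 4.18 and 6.18 for the Psmc3 promoter itself. The regions of Psmd3, 7 of 10 found in all libraries, lay in or near Med24 (5 of 10) and the Gsdma genes (3 of 10). Of the 11 around Psmb3, 5 lay in a stretch from 44.3 to 41.6 kb before its start, in no protein-coding gene, 4 of them in all libraries. Another 5 lay inside Pip4k2b, 1 of them in all libraries.

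Psmb5 and Psmb11 start 7.29 kb apart on chromosome 14 and are transcribed away from each other. The promoter of Psmb5 was open in every library and that of Psmb11 in none. They shared 5 of the 6 distal regions that each had within 50 kb, which follows largely from the short distance between the starts. Of the 6 regions, 4 for Psmb5 and 3 for Psmb11 were found in all libraries. The region chr14:54603381-54603640, 14.5 kb downstream of the Psmb5 start, was the tallest, with heights of 5.58, 3.96 and 7.90. It exceeded the promoter of Psmb5 itself (3.83, 3.01 and 4.46) in every library. No peak lay between the starts beyond that of the Psmb5 promoter. Psme1 and Psme2, 12.7 kb apart on the same chromosome, shared 1 of their 2 distal regions each.

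**Figure D5:**
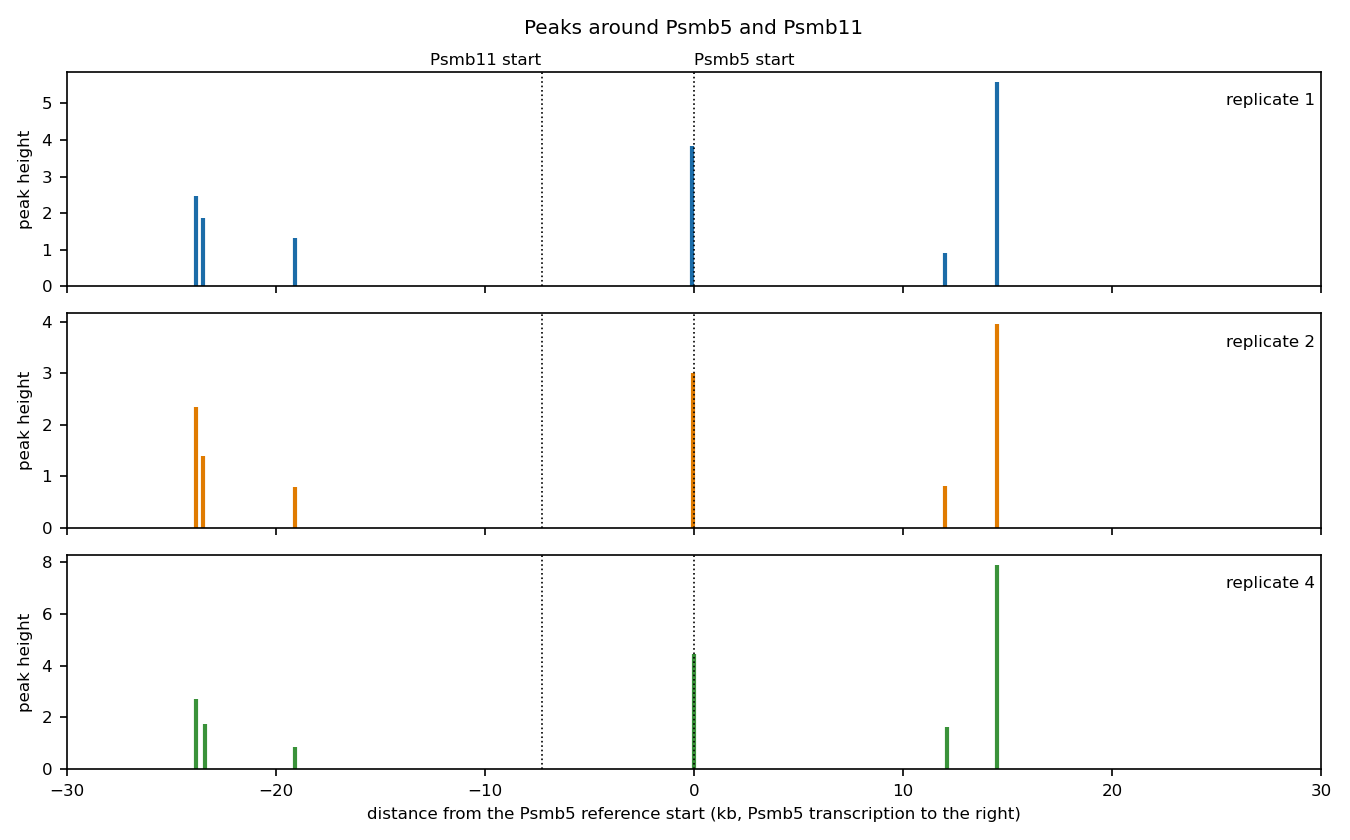
Peaks of the longer list within 30 kb of the Psmb5 reference start, 1 panel per library, with peak height as deposited (y axis, from 0) against distance in the direction of Psmb5 transcription (x axis, kb). Dotted lines mark the starts of Psmb5 and Psmb11. In each library a peak stands at the Psmb5 start and a taller one 14.5 kb downstream, and none stands at the Psmb11 start.

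Genes outside the symbol rule that belong to the proteasome or work with it were also open, over a wider range of height percentiles than the constitutive members. A list of ubiquitin, shuttle, assembly and regulatory genes outside the symbol rule, among them Sem1, Adrm1, Pomp, Nfe2l1, Nfe2l2, Vcp and Ubb, had 29 names, of which 27 were matched. All 27 were open at the promoter in every library, beside 50.5% of all genes. Their median percentiles were 94.1, 92.5 and 93.4, higher than the members' 91.4, 88.3 and 90.0 in each library. The lowest of them stood at 56.3, 52 and 66.7, under the lowest constitutive member (79.1, 73.8 and 79.0). It was above the lowest of all open members, Psmb10 (53.6, 35.0 and 30.1).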

How the data were processed

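The 3 libraries, all in 1 group by their labels, each had deposited peak and footprint lists on mm10, made from that library alone, per the file headers and accompanying notes. Peak height is a signal the authors computed for each peak, on a scale not stated. The false discovery rate of cutting, a kind of q-value, and the constant p-value threshold of the footprints are as deposited by the authors. Which aligner, peak caller and footprint tool made them is not given in the sources used here.

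From these files, promoter peaks (overlap of 1 bp with 1000 bp either side of any protein-coding start in the GENCODE release 21 basic set), height percentiles, footprints, distal peaks and consensus matches were computed with Python 3.11.15, pandas 2.3.3 and numpy 2.4.6. The reference start is that of the APPRIS principal transcript, then the best supported, then the longest. RefSeq gave the second set of starts, and the RefSeq release of GRCm38.p6 the sequences. The functions were tested on simulated data. Every member was named, as were genes with a start within 1000 bp of a member's and host genes of distal regions of the 3 members with the most. Other pathway genes and markers are named as examples. With 1 group, no test between samples was possible, and lists are given as counts beside all genes, with no p-value. Alternatives covered the peak list, window, start, distal reach, sequence window and leaving out each library. The members, classes and lists were chosen with earlier results of these data known.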

Additional observations from a re-analysis of the deposited data

How the results depend on the processing

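No paired analysis was possible because the libraries form 1 group. Of 123 recomputed values for groups of genes 98 stayed within their spread or, for counts, within 1.5 times, and 25 moved. Leaving out 1 of 3 libraries cannot move a mean over libraries beyond its SD, so for means these settings say nothing about stability. They are counted among the values that stayed. The median footprints of the immune or tissue-restricted genes, whose spread exceeds their mean, went from 1.17 to 0.500 without replicate 1. Without replicate 2 that median was 1.75. Of 449 recomputed values for single members, which also include leaving out each library, 97 moved. The members' median height percentile was 85.4 in the shorter peak list and 75.6 among promoter peaks only. Constitutive promoters had 4.33 footprints when only those inside peaks counted. Distal peaks per gene in the shorter list, among peaks above the median height, within 25 kb and within 100 kb were 1.84, 1.34, 1.19 and 5.48 for members (all genes 1.59, 1.18, 1.21 and 4.70), 2.08, 1.52, 1.44 and 5.59 for constitutive members and 1.56, 1.17, 0.833 and 5.28 for immune or tissue-restricted ones. Members were thus above all genes except within 25 kb. Leaving aside the 3 members with the most distal peaks, an alternative chosen after seeing the data, gave 2.30, below the 2.40 of all genes. Within 500 bp before to 100 bp after the start the members with a match numbered 17 for ARE (35.4%, beside 24.3% of open genes), 28 for NF-Y (58.3%, beside 55.6%) and 13 for the interferon pattern (27.1%, beside 15.1%). Within 100 bp before to 50 bp after they numbered 4 for ARE (8.33%, beside 8.92%), 2 for nuclear respiratory factor 1 (4.17%, beside 4.29%), 4 for the interferon pattern (8.33%, beside 2.97%), 2 for NF-kappaB (4.17%, beside 5.39%), 0 for CTCF (0.444% of open genes) and 1 for ZNF143 (2.08%, beside 0.589%). The cause of the changed shares was not tested. The percentile of Psmb10 was 54.4 with a window of 2000 bp and 26.7 for the peak nearest its start. Peak lists without read totals limit what can be said of weak or absent peaks.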
